A study of Mus musculus with 2 samples.

Results

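The insulin-like growth factor (IGF) axis was followed here through 10 genes, the ligands Igf1 and Igf2, the receptors Igf1r and Igf2r, and the binding proteins Igfbp2 to Igfbp7. They were taken by symbol from the gene list of the files, where all 10 stood in both libraries among 19465 gene rows. The data are spatial transcriptomics of 2 tissue sections. RNA was read out per spot of a barcoded grid, and 1 spot can cover several cells of more than 1 type. One group was a nude mouse with a micropillar implant, a surface carrying small posts, and the other a nude mouse with a flat implant, with 1 library in each. Nude mice lack a working thymus and hence most T cells, and both groups share this background. The labels give bone as the tissue and formalin-fixed sections, and the series title concerns how surface microtopography bears on nuclear shape, secreted factors and bone regeneration. Age, the implant's material and site, and the number of animals behind a section are not given in the labels. No group has a replicate, so every difference below is one between 2 libraries, without a test, and each interval is 95% and covers counting error only.

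IGF1 and IGF2 are small secreted peptides that signal through the tyrosine kinase receptor IGF1R, which acts largely through the PI3K and AKT pathway on growth, survival and metabolism. IGF2R binds IGF2 and carries it to lysosomes, so that it clears the ligand. Binding proteins hold IGFs in the fluid around cells, lengthen their life or keep them from the receptor, and are cut by proteases that free the ligand. IGFs and their binding proteins are stored in bone matrix and act on osteoblasts. In the adult brain, IGF2 is known from the choroid plexus, which makes cerebrospinal fluid, and from the meninges.

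The 3064 kept spots of the micropillar library held 3173632 unique molecular identifiers (UMIs, counted RNA molecules) and the 2681 kept spots of the flat library held 2263345, with medians of 831 (micropillar) and 602 (flat) UMIs per spot. Spots were sorted by marker genes that include no IGF gene. A spot counted as meningeal, choroid plexus, bone, skin or muscle where it held at least 2 UMIs of that marker list. These UMIs also had to make up at least 5 times their share over all kept spots. Other spots counted as brain where at least 3 brain marker UMIs made up at least 0.5 times their share over all kept spots. Connective tissue spots were added as a seventh kind after the data had been seen, from spots in none of these classes. Spots of a kind can hold other tissue as well, and fewer cells of a type or less RNA per cell cannot be told apart.

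Although the label reads bone, brain marker spots were 63.0% of kept spots and gave 77.6% of UMIs in the micropillar library, against 49.5% and 76.7% in the flat library. Bone marker spots numbered 82 in the micropillar library and 65 in the flat library. In them bone-forming markers reached 5582 CPM (UMIs per 1000000 UMIs of the spots in question) in the micropillar library and 7117 CPM in the flat library, with fibroblast markers at 36150 (micropillar) and 37073 CPM (flat) and granulocyte markers of marrow at 3035 (micropillar) and 3376 CPM (flat). The micropillar library had 54 choroid plexus, 275 connective tissue, 295 skin and 65 muscle marker spots, and the flat library 42, 329, 301 and 309 of the same kinds. Meningeal marker spots were few, 12 in the micropillar library and 11 in the flat library. Those of the micropillar library held 5 of 10 leptomeningeal markers at 1224 CPM, beside 9992 CPM of brain and 1175 CPM of epidermal markers, and those of the flat library 6 of 10 at 2903 CPM, beside 13667 CPM of brain and 3508 CPM of epidermal markers. Slc47a1, Foxc2 and Slc22a2 were at 0 in both.

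The 250 bases upstream of 4 starts are shown for genes that the results below return to: Igf2 and Igfbp2, which were high together in choroid plexus marker spots, Igfbp5, the neighbour of Igfbp2 on chromosome 1 with another pattern, and Igfbp7, which was high in several kinds. They come from RefSeq in build GRCm38.p6, and capitals mark the GC box GGGCGG on either strand. The Igf2 window is 1 of 4 listed for that gene and the Igfbp2 window 1 of 2, each chosen after its motifs were seen, as the one with most GC boxes. That of Igf2 lies at chr7:142657497-142657746 on the minus strand. Those of Igfbp2, Igfbp5 and Igfbp7 lie at chr1:72824230-72824479 on the plus strand, at chr1:72874866-72875115 on the minus strand and at chr5:77408046-77408295 on the minus strand.
Igf2: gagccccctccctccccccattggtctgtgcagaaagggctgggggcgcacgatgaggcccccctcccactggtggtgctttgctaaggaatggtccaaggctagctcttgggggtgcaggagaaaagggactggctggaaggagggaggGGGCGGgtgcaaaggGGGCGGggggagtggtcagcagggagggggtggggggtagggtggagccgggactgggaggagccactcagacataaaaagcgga
Igfbp2: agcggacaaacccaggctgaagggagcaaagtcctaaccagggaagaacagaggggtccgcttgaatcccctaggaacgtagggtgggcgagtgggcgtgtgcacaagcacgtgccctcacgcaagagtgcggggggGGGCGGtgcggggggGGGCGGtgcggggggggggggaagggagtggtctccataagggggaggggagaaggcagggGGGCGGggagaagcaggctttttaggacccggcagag
Igfbp5: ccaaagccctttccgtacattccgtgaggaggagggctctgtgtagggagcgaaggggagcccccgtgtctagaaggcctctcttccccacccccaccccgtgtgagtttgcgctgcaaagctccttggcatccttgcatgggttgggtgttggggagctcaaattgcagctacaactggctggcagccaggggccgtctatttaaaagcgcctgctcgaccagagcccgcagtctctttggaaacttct
Igfbp7: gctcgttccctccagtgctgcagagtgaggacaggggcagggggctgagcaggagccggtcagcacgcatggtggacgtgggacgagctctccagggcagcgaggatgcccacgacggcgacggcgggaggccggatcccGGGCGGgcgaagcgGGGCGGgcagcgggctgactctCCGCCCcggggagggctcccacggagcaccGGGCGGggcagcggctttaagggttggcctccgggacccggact

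Motifs were searched on both strands. The Igfbp7 window held 4 GC boxes, that of Igfbp2 3 and that of Igf2 2, while the Igfbp5 window had none. Over the 14 windows listed for the 10 genes, 6 windows of 5 genes held a GC box, against 32.7% of all 32851 windows of this length. Among these genes were the receptors, Igf2r with 3 GC boxes and Igf1r with 2, neither of them called in any kind below. The TATA box TATAAA was found upstream of Igfbp4 and Igfbp6 (12.4% of all windows), and TAATCC, the core bound by OTX factors, in no member's window (6.25% of all windows). A match is a run of letters and not evidence of a site. By GENCODE M21 coordinates of that build, Igfbp2 lies on chromosome 1 from 72824503 to 72852474 on the plus strand and Igfbp5 from 72857932 to 72874884 on the minus strand, so that their ends face each other across 5457 bases. Igf2 lies on chromosome 7 from 142650766 to 142666816 and overlaps an antisense gene, Igf2os, by 7124 bases, and Igf2r, on chromosome 17 from 12682406 to 12769664, overlaps the antisense RNA Airn by 28354 bases. Neither Igf2os nor Airn is among the genes counted. Whether counting used the strand or a probe set is not given in the sources used here. Whether antisense RNA adds to the Igf2 or Igf2r counts is therefore not known.

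In both libraries Igf2 and Igfbp2 were high in choroid plexus marker spots, and Igf1, Igfbp3, Igfbp4, Igfbp5, Igfbp6 and Igfbp7 were high in connective tissue marker spots. These groups overlap, since Igfbp7 was also high in choroid plexus spots of both libraries and Igfbp3 and Igfbp5 in those of the flat library. There connective tissue over choroid plexus gave 1.38-fold for Igfbp7 (0.997 to 1.95), 1.22-fold for Igfbp5 (0.655 to 2.42) and 0.715-fold for Igfbp3 (0.215 to 2.72). Each kind was set against the brain marker spots of the same library, and a gene was called where it differed by at least 2-fold and its interval left out 1. Of 60 pairs of gene and kind, 21 were called higher than brain in the micropillar library and 23 in the flat library, of which 15 were the same pairs. In the micropillar library the members called higher were 3 in choroid plexus spots (6.31% of all genes were), 6 in connective tissue (14%), 4 in bone (8.68%), 3 in muscle (7.25%), 2 in skin (21.1%) and 3 in meningeal spots (1.8%). In the flat library they were 5 in choroid plexus spots (6.16%), 6 in connective tissue (15.3%), 4 in bone (7.1%), 4 in muscle (8.72%), 3 in skin (20.1%) and 1 in meningeal spots (2.82%). Members called lower were 2 in the micropillar library and 1 in the flat library, all in skin marker spots, where 20.6% (micropillar) and 19.4% (flat) of all genes were. In the other kinds no member was called lower, where between 0.547% (meningeal) and 12.9% (connective tissue) of all genes were in the micropillar library, with 2.94% in choroid plexus, 4.15% in bone and 4.28% in muscle. In the flat library these shares were 0.314% in meningeal, 3.16% in choroid plexus, 3.3% in bone, 14.2% in muscle and 14.8% in connective tissue spots. Members at 0 UMIs in these kinds could not be called lower, since their intervals still held 1. Examples were Igfbp6 in choroid plexus spots of the micropillar library (0 to 2.69) and Igf2r in bone spots of the flat library (0 to 3.77).

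**Figure D1:**
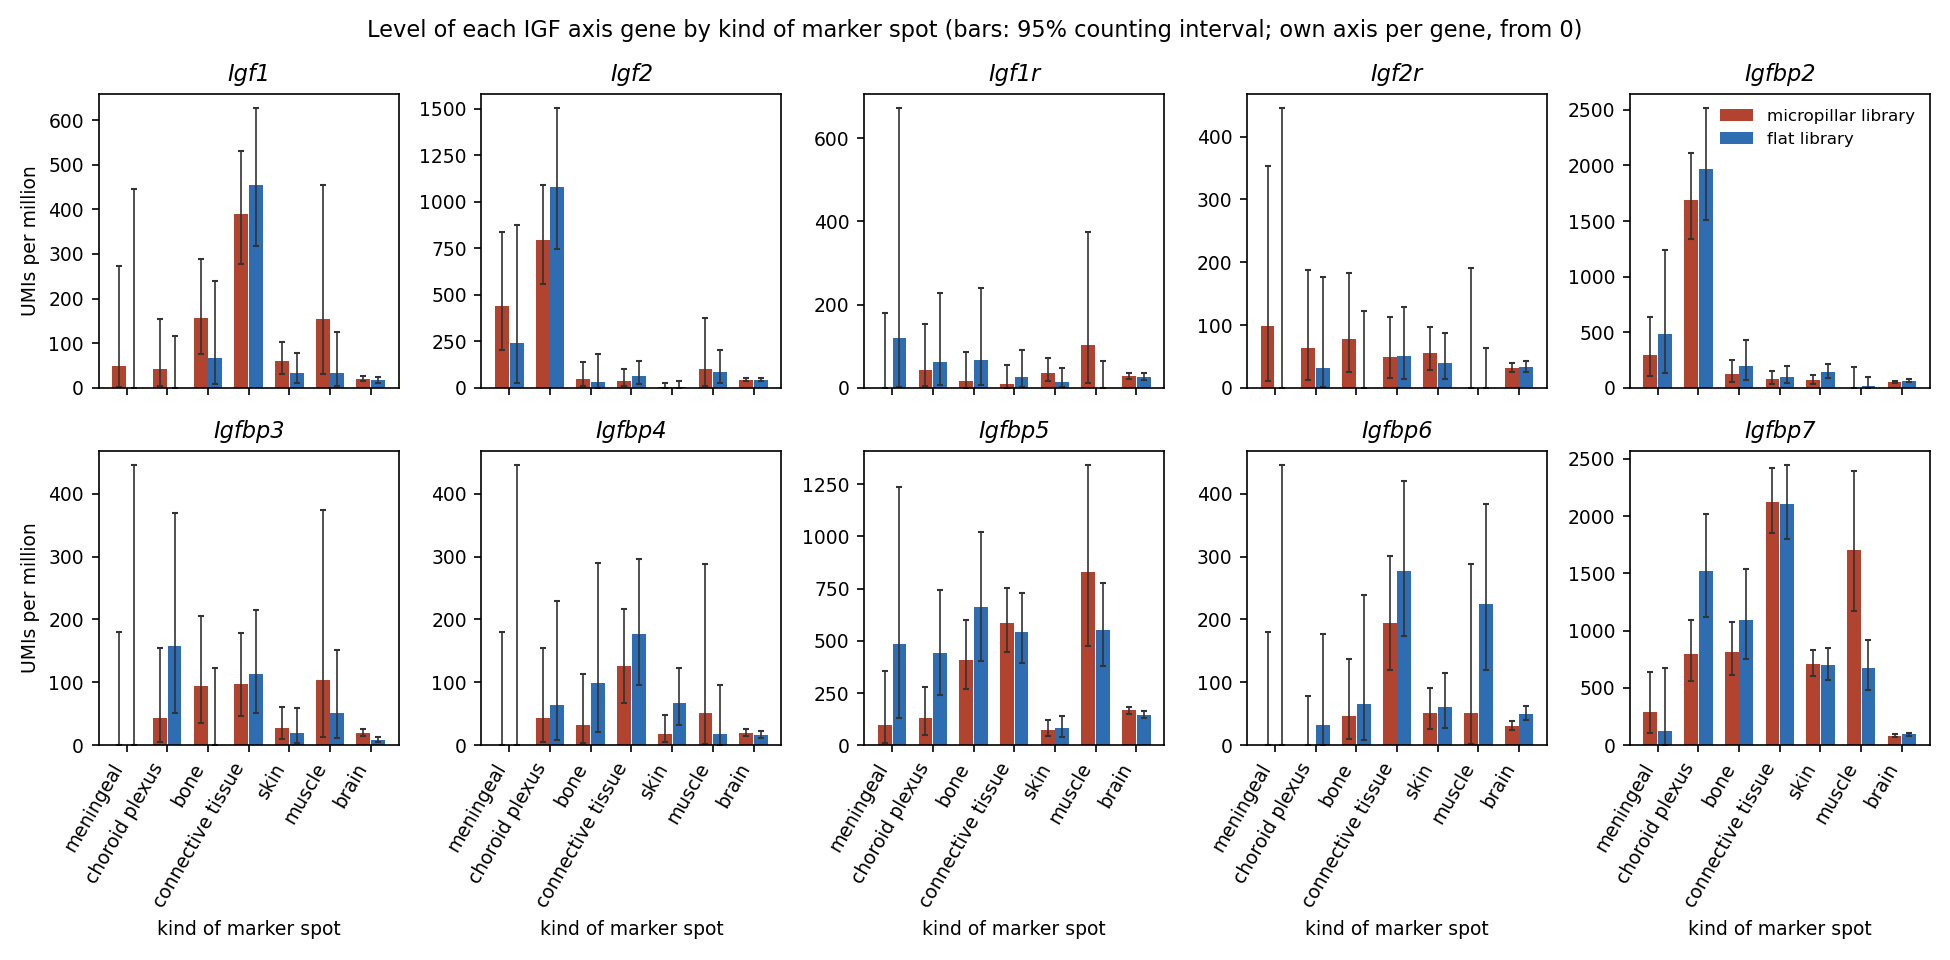
Level of each IGF axis gene in CPM (vertical axis, from 0, its own scale for each gene) in 7 kinds of marker spots, with the micropillar library in red left of the flat library in blue; thin bars are 95% counting intervals. Igf2 and Igfbp2 stand highest in choroid plexus marker spots and Igf1 in connective tissue marker spots in both libraries, and intervals are wide in the meningeal spots, of which there were 12 and 11.

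Igf2 had 37 UMIs in the choroid plexus spots of the micropillar library and 34 in those of the flat library, levels of 792 CPM (micropillar) and 1078 CPM (flat). Brain marker spots were at 44.7 CPM in the micropillar library and 44.4 CPM in the flat library, which makes choroid plexus spots 17.7-fold higher (11.9 to 26.0) in the micropillar library and 24.3-fold higher (15.7 to 36.8) in the flat library. The signal was spread over spots: 23 of 54 choroid plexus spots held an Igf2 UMI in the micropillar library (42.6%, exact Clopper-Pearson interval 29.2 to 56.8) and 19 of 42 in the flat library (45.2%, 29.8 to 61.3), and no spot held more than 5. In brain marker spots the share was 5.03% in the micropillar library and 5.12% in the flat library. Median depth was 791.5 UMIs in choroid plexus spots and 1059 UMIs in brain spots of the micropillar library, and 735.5 and 1055.5 UMIs in the same kinds of the flat library. Choroid plexus spots, 1.76% of kept spots in the micropillar library and 1.57% in the flat library, gave 21.1% of Igf2 UMIs in the micropillar library and 24.8% in the flat library.

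In meningeal spots Igf2 had 9 UMIs in the micropillar library, 9.87-fold over brain (4.39 to 19.4), and 2 UMIs in the flat library, 5.45-fold with an interval from 0.649 to 20.4. Taking any spot with 1 leptomeningeal UMI widened this kind to 111 micropillar and 86 flat spots, with 26 Igf2 UMIs in the micropillar library, 5.51-fold over brain (3.39 to 8.70), and 16 in the flat library, 6.83-fold (3.67 to 12.04). Choroid plexus spots were 1.80-fold above meningeal spots in the micropillar library (0.852 to 4.24) and 4.46-fold in the flat library (1.14 to 38.3), so the order of these neighbours was settled by counting error in the flat library only. Skin was the lowest kind for Igf2, with 1 UMI in each library, 0.103-fold of brain (0.00259 to 0.588) in the micropillar library and 0.151-fold (0.00378 to 0.867) in the flat library. Bone spots, at 47.2 CPM (micropillar) and 33.1 CPM (flat), and connective tissue spots, at 38.9 CPM (micropillar) and 63.0 CPM (flat), had intervals of their fold over brain that held 1.

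Igf1, the ligand that also circulates under growth hormone control, was highest in connective tissue marker spots. It had 40 UMIs there in the micropillar library and 36 in the flat library. That is 389 CPM, against 20.3 CPM in brain marker spots, in the micropillar library (19.2-fold, 12.3 to 29.6) and 454 CPM, against 17.9 CPM, in the flat library (25.4-fold, 15.3 to 42.5), which was 5.27-fold and not called in flat spots of at least 500 UMIs. Connective tissue spots gave 31.0% of Igf1 UMIs in the micropillar library and 41.4% in the flat library while holding 3.24% (micropillar) and 3.51% (flat) of all UMIs. Igf1 in these spots exceeded that in bone spots, the next kind in order, by 2.48-fold (1.22 to 5.55) in the micropillar library and 6.85-fold (1.76 to 58.7) in the flat library. Bone spots could also meet the rule for brain spots, while connective tissue spots by definition did not. Brain markers stood at 6117 CPM in bone and 1538 CPM in connective tissue spots of the micropillar library. In the flat library they stood at 6587 and 1121 CPM in these kinds. The part of this brain content in the folds was not tested. Markers of macrophages and microglia, cells known to make IGF1, stood at 2900 CPM in connective tissue spots and 410 CPM in brain spots of the micropillar library (8 of 9 markers present in both kinds) and at 3301 and 339 CPM in the same kinds of the flat library (8 and 7 of 9). Their part in the Igf1 level was not tested. In bone spots Igf1 had 10 UMIs in the micropillar library, 7.74-fold over brain (3.50 to 15.4), and 2 in the flat library, 3.71-fold (0.43 to 14.6). In the micropillar library it was also called in muscle spots, on 3 UMIs (7.64-fold, 1.52 to 23.6), and in skin spots (2.96-fold, 1.47 to 5.52). Neither was called in the flat library. Connective tissue over muscle was 2.51-fold in the micropillar library (0.799 to 12.7), within counting error, and 13.1-fold in the flat library (3.38 to 113). Igf1 was at 0 UMIs in the 42 choroid plexus spots of the flat library, where 3 counts would be 95.1 CPM, and had 2 UMIs in the 54 of the micropillar library.

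Neither receptor was called in any kind in either library. Igf1r, the signalling receptor, stood at 28.4 CPM in brain spots of the micropillar library and 27.1 CPM in those of the flat library, on 70 UMIs (micropillar) and 47 UMIs (flat), and had at most 8 UMIs in any other kind. Igf2r, the clearance receptor, stood at 31.3 CPM on 77 UMIs in brain spots of the micropillar library and at 33.4 CPM on 58 UMIs in those of the flat library, and its highest count elsewhere was 12 UMIs in micropillar skin spots, 1.77-fold over brain (0.878 to 3.28). In choroid plexus spots, where Igf2 was high, Igf1r was 1.51-fold over brain in the micropillar library (0.179 to 5.65) and 2.34-fold in the flat library (0.276 to 8.94), and Igf2r 2.05-fold in the micropillar library (0.415 to 6.23) and 0.949-fold in the flat library (0.0236 to 5.50). These intervals are wide, so a difference of several fold in either receptor would not have been detectable in these spots. Counts were as low in meningeal, bone, connective tissue and muscle spots, where Igf1r had at most 2 UMIs and Igf2r at most 5. In connective tissue spots Igf1r was 0.342-fold of brain in the micropillar library (0.0085 to 1.97) and 0.931-fold in the flat library (0.110 to 3.55). Igf2r was 1.56-fold (0.491 to 3.79) in the micropillar library and 1.51-fold (0.398 to 4.07) in the flat library. The lack of a call in these 4 kinds says little.

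Igfbp2, a binding protein secreted by choroid plexus and glia, was high in choroid plexus marker spots beside Igf2. It had 79 UMIs there in the micropillar library and 62 in the flat library. That is 1692 CPM, against 54.0 CPM in brain, in the micropillar library (31.3-fold, 23.4 to 41.7) and 1966 CPM, against 66.8 CPM in brain, in the flat library (29.4-fold, 21.3 to 40.4). These folds were above those of Igf2, with overlapping intervals in both libraries. In the flat library the order turned in spots of at least 500 UMIs, with log2 folds of 5.33 for Igfbp2 and 5.48 for Igf2. It also turned there with a marker minimum of 1 UMI, with 3.96 for Igfbp2 and 4.01 for Igf2. Igfbp2 was also above meningeal spots, the next kind in order, by 5.76-fold in the micropillar library (2.53 to 16.2) and 4.06-fold in the flat library (1.51 to 15.4). Choroid plexus spots with both Igf2 and Igfbp2 numbered 12 of 54 (22.2%, 12.04 to 35.6) in the micropillar library and 14 of 42 (33.3%, 19.6 to 49.5) in the flat library, against 17 of 1930 brain marker spots in the micropillar library and 14 of 1328 in the flat library. In muscle spots Igfbp2 had 0 UMIs in the micropillar library and 1 in the flat library.

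**Figure D2:**
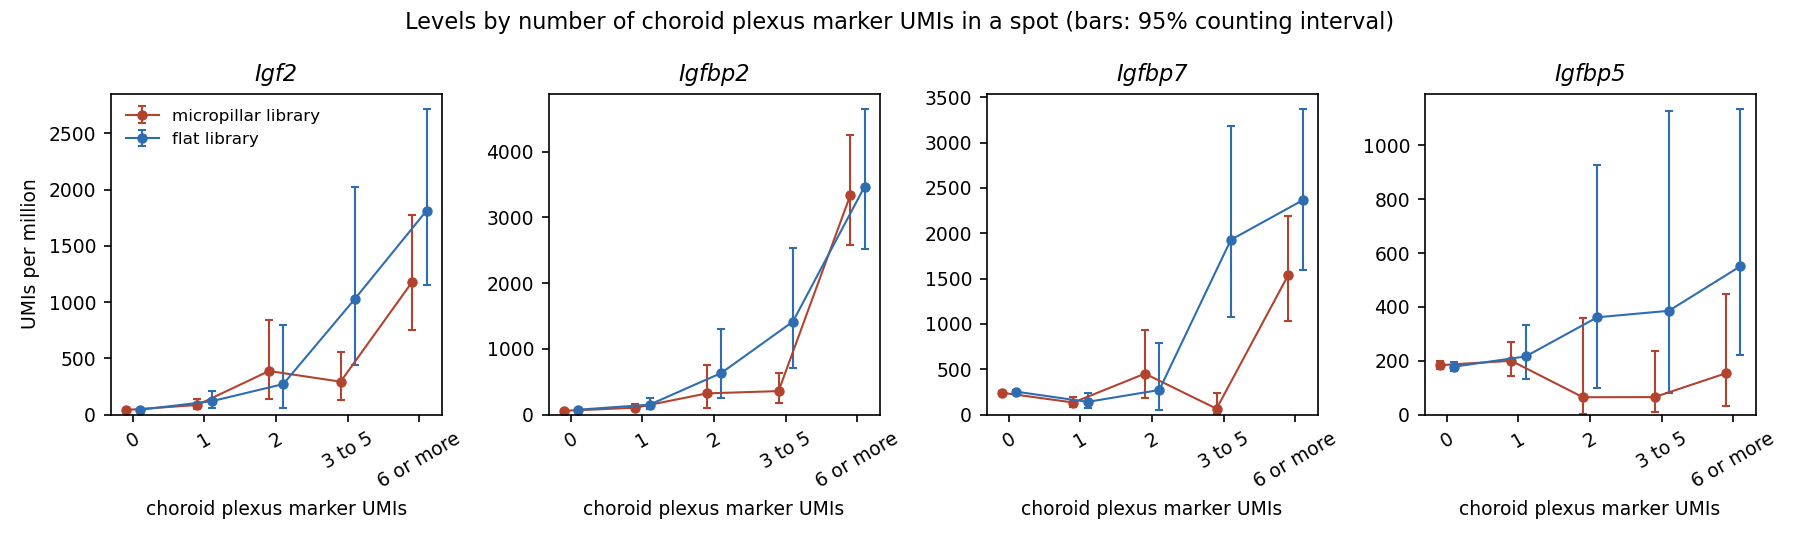
Levels of Igf2, Igfbp2, Igfbp7 and Igfbp5 in CPM (vertical axis, from 0) over all kept spots, by the number of choroid plexus marker UMIs in a spot (horizontal axis), for the micropillar library in red and the flat library in blue; bars are 95% counting intervals. Spots with 6 or more marker UMIs, 20 in the micropillar and 16 in the flat library, stand far above spots with none for Igf2, Igfbp2 and Igfbp7, while Igfbp5 in the micropillar library does not.

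Set against the number of choroid plexus marker UMIs in a spot, Igf2 and Igfbp2 were highest where these markers were most abundant. Spots with 6 or more choroid plexus marker UMIs had Igf2 at 1179 CPM (748 to 1770) in the micropillar library and 1812 CPM (1149 to 2719) in the flat library. Spots with no such UMI had 41.1 CPM (34.0 to 49.1) in the micropillar library and 43.0 CPM (34.7 to 52.7) in the flat library. Igfbp2 stood at 3333 CPM in spots with 6 or more and 58.0 CPM in spots with none in the micropillar library, and at 3466 and 74.3 CPM in the same classes of the flat library. Ttr, the main secreted carrier protein gene of choroid plexus and no part of the marker list, stood at 31180 and 125.3 CPM in these classes of the micropillar library and at 35925 and 85.1 CPM in those of the flat library. Leptomeningeal markers in choroid plexus marker spots stood at 107 CPM in the micropillar library (5 UMIs, 3 of 10 markers present), against 28.0 CPM in its brain spots (9 of 10), and at 190 CPM in the flat library (6 UMIs, 4 of 10 present), against 23.6 CPM (8 of 10). Their part in the Igf2 and Igfbp2 levels was not tested. The bins with 6 or more held only 20 micropillar and 16 flat spots, and those with 2 and with 3 to 5 held 12 to 19. Between them the levels kept no steady order: in the micropillar library Igf2 stood at 387 CPM with 2 marker UMIs and at 293 CPM with 3 to 5, and Igfbp7 at 452 CPM with 2 and 65.0 CPM with 3 to 5.

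Igfbp7, which binds IGFs weakly and is known from blood vessels and stroma, was called higher than brain in every kind of both libraries but the meningeal spots of the flat library, and in muscle spots of the flat library that call was lost, with a log2 fold of -0.026, in spots of at least 500 UMIs. In connective tissue spots it had 218 UMIs in the micropillar library and 167 in the flat library. That is 2122 CPM, against 81.6 CPM in brain, in the micropillar library (26.0-fold, 21.4 to 31.6) and 2104 CPM, against 93.3 CPM in brain, in the flat library (22.5-fold, 18.1 to 28.2). In the micropillar library choroid plexus spots were 9.70-fold over brain (6.64 to 13.8), bone spots 10.0-fold (7.24 to 13.6) and skin spots 8.71-fold (7.02 to 10.8). In the flat library choroid plexus spots were 16.3-fold over brain (11.6 to 22.6), bone spots 11.7-fold (7.79 to 17.1) and skin spots 7.47-fold (5.78 to 9.61). Connective tissue was first in order in both libraries, but its lead over the next kind, muscle in the micropillar library (1.24-fold, 0.859 to 1.85) and choroid plexus in the flat library (1.38-fold, 0.997 to 1.95), was within counting error. Endothelial markers, whose cells carry Igfbp7, stood at 564 CPM in connective tissue spots (9 of 9 markers present), 364 CPM in choroid plexus spots (5 of 9) and 182 CPM in brain spots (8 of 9) of the micropillar library. In the flat library they stood at 693, 254 and 181 CPM in these kinds (8, 3 and 8 of 9 present). Their part was not tested.

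Igfbp5, a binding protein stored in bone matrix, had 26 UMIs in bone spots of the micropillar library and 20 in those of the flat library. That is 409 CPM in the micropillar library, 2.44-fold over brain (1.58 to 3.63), and 662 CPM in the flat library, 4.51-fold (2.71 to 7.11). In the micropillar library this call was lost under 4 of 7 alternatives, among them leaving the osteocalcin gene Bglap out of the bone markers, with a log2 fold of 0.94 in place of 1.29. Igfbp5 stood at 584 CPM in connective tissue and 827 CPM in muscle spots of the micropillar library, and at 542 and 552 CPM in the same kinds of the flat library. In order, bone was the lowest of these 3 kinds in the micropillar library and the highest in the flat library, with intervals between neighbours that held 1. Muscle over bone was 2.02-fold in the micropillar library (1.01 to 3.92) and 0.834-fold in the flat library (0.463 to 1.54). It was lower in skin spots of the micropillar library, at 73.9 CPM against 167 CPM in brain (0.442-fold, 0.250 to 0.726), and had 80.4 CPM against 147 CPM in the flat library (0.547-fold, 0.279 to 0.973), short of 2-fold. Its chromosomal neighbour Igfbp2 was at 126 CPM in bone spots of the micropillar library and 199 CPM in those of the flat library, with folds over brain of 2.33 in the micropillar library (0.985 to 4.72) and 2.97 in the flat library (1.07 to 6.67).

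Igfbp6, a binding protein that prefers IGF2, had 20 UMIs in connective tissue spots of the micropillar library and 22 in those of the flat library. That is 195 CPM in the micropillar library, 6.48-fold over brain (3.74 to 10.7), and 277 CPM in the flat library, 5.53-fold (3.30 to 8.91). In spots of at least 500 UMIs the folds were 1.22 (micropillar) and 1.67 (flat) and no longer called, and the calls were lost as well when spots were thinned to 250 UMIs (log2 folds of 1.35 in the micropillar and 1.26 in the flat library). In muscle spots it had 1 UMI in the micropillar library and 13 in the flat library, the second 4.47-fold over brain (2.29 to 8.06). Igfbp4, an inhibitory binding protein cut by the protease PAPP-A, had 13 UMIs in connective tissue spots of the micropillar library, 6.63-fold over brain (3.29 to 12.45), and 14 in those of the flat library, 10.9-fold (5.32 to 21.5). Igfbp3, the main carrier of IGFs in blood, had 10 UMIs there in the micropillar library, 5.10-fold over brain (2.30 to 10.2), and 9 in the flat library, 14.1-fold (5.37 to 34.9). Igfbp3 also had 5 UMIs in choroid plexus spots of the flat library, 19.7-fold over brain (5.54 to 57.8), and 2 in those of the micropillar library (2.24-fold, 0.264 to 8.57). Igfbp3, Igfbp4 and Igfbp6 had no UMI in the meningeal spots of either library, where 3 counts would be 147 CPM in the micropillar library and 363 CPM in the flat library.

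Brain marker spots were also split by markers of brain parts, with lists chosen after values had been seen, so these levels are a description. Igf2 stood at 132 CPM in hypothalamus marker spots of the micropillar library, against 39.9 CPM in the rest of its brain spots, and at 122 CPM in those of the flat library, against 41.3 CPM. In myelin marker spots Igf2 stood at 54.9 CPM in the micropillar library, 1.25-fold over the rest (0.582 to 2.40), and at 175 CPM in the flat library, 4.99-fold (2.84 to 8.43), its highest brain part there. In cortex marker spots it stood at 10.98 CPM in the micropillar library and 14.0 CPM in the flat library. In astrocyte marker spots of the micropillar library Igf2 was at 158 CPM, Igfbp2 at 177, Igf1 at 102 and Igfbp7 at 158 CPM, and in those of the flat library Igf2 was at 142 CPM, Igfbp2 at 224, Igf1 at 122 and Igfbp7 at 346 CPM. Each of these lay 2.02-fold to 8.24-fold above the rest of the brain spots. Astrocyte marker spots of the micropillar library also carried macrophage and microglia markers at 883 CPM, against 410 CPM over all its brain marker spots, and fibroblast markers at 1655 CPM, against 1249. They held choroid plexus markers at 93.0 CPM, against 50.8, leptomeningeal markers at 74.4 CPM, against 28.0, and endothelial markers at 232 CPM, against 182. In those of the flat library macrophage and microglia markers stood at 1831 CPM, against 339, and fibroblast markers at 427 CPM, against 251. There choroid plexus markers stood at 122 CPM, against 39.8, leptomeningeal markers at 40.7 CPM, against 23.6, and endothelial markers at 264 CPM, against 181. The part of these markers in the levels was not tested. Igfbp5 was at 373 CPM in myelin marker spots of the micropillar library, against 151 CPM in the rest of its brain spots, and at 280 CPM in those of the flat library, against 138 CPM. In astrocyte marker spots Igfbp5 was at 316 CPM in the micropillar library, 1.97-fold over the rest (1.34 to 2.80), and at 671 CPM in the flat library, 5.10-fold (3.43 to 7.38). In striatum marker spots it was at 91.9 CPM in the micropillar library and 61.8 CPM in the flat library. Igf1 had no UMI in the striatum marker spots of either library, 255 in the micropillar and 232 in the flat library.

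Over the whole section 1 of the 10 genes, Igfbp6, differed by more than 1.5-fold between the libraries. Genes were compared as log2 of CPM plus 1, micropillar over flat, and counted where they differed by 1.5-fold or more, which 13.6% of 11887 genes did (9.22% higher, 4.35% lower). Igfbp6, the member past it, had 114 UMIs and 35.9 CPM (29.6 to 43.2) in the micropillar library and 139 UMIs and 61.4 CPM (51.6 to 72.5) in the flat library, a log2 ratio of -0.76 (-1.12 to -0.40). Igfbp3 lay just inside the threshold, with 77 UMIs in the micropillar library and 36 in the flat library and a log2 ratio of 0.58 (0.02 to 1.16). Igfbp2, with 271 UMIs (micropillar) and 235 (flat), had a log2 ratio of -0.28 (-0.53 to -0.02). The intervals of the other 7 genes held 0. Igf1 had 129 UMIs in the micropillar library and 87 in the flat library, a log2 ratio of 0.08 (-0.31 to 0.48), and Igf2 had 175 (micropillar) and 137 (flat), a log2 ratio of -0.13 (-0.46 to 0.20). The receptors had log2 ratios of 0.23 for Igf1r (-0.25 to 0.71, on 94 micropillar and 57 flat UMIs) and 0.15 for Igf2r (-0.27 to 0.58, on 114 micropillar and 73 flat UMIs). Igfbp4 had -0.25 (-0.75 to 0.25, on 70 micropillar and 60 flat UMIs). Igfbp5, with 580 UMIs (micropillar) and 415 (flat), had -0.0047 (-0.19 to 0.18), and Igfbp7, with 767 (micropillar) and 603 (flat), -0.14 (-0.30 to 0.02). The median of the 10 genes was -0.07, with 4 higher and 6 lower, beside 0.06 over all genes tested, but Igf1, Igf2, Igfbp4, Igfbp5 and Igfbp7 took either sign under other settings.

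**Figure D3:**
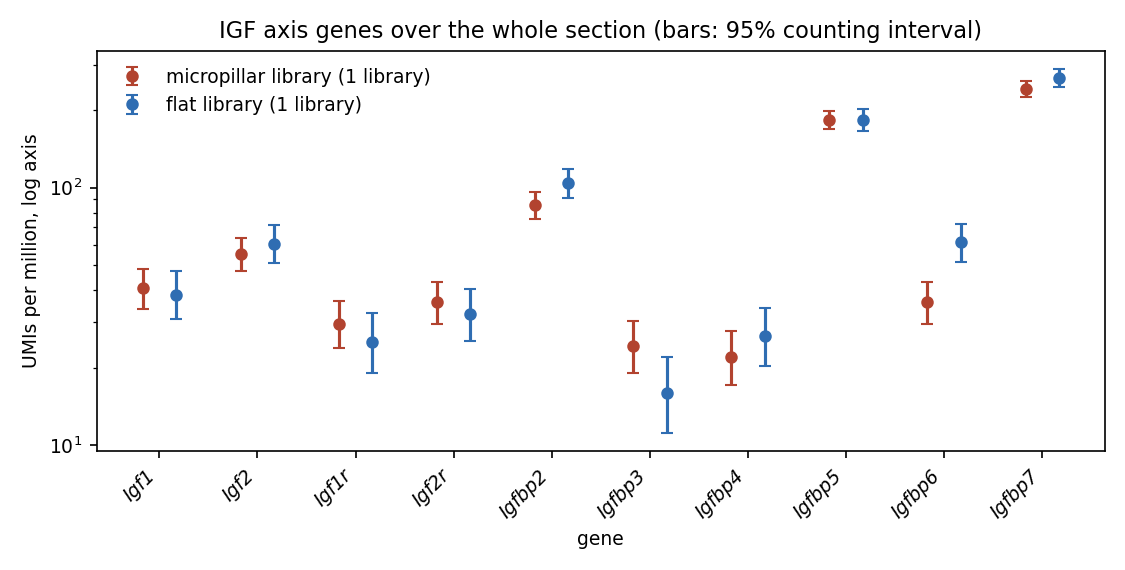
Level of each IGF axis gene over the whole section in CPM (log axis), with the micropillar library in red left of the flat library in blue, 1 library each; bars are 95% counting intervals. Igfbp6, at 35.9 CPM in the micropillar library and 61.4 CPM in the flat library, is the only one of the 10 whose intervals do not overlap.

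The sections hold unlike shares of each tissue, so the libraries were also compared within each kind, for genes with at least 10 UMIs. A member was called where it was past 1.5-fold with an interval that left out 0. None was called in meningeal, bone or connective tissue spots, of 2, 4 and 7 members with enough UMIs, where 14.2%, 6.55% and 7.31% of all genes were. In connective tissue spots Igfbp7 had a log2 ratio of 0.01 (-0.29 to 0.31), Igf1 -0.22 (-0.90 to 0.47) and Igfbp5 0.11 (-0.48 to 0.71). In choroid plexus spots the ligand Igf2 had -0.44 (-1.15 to 0.27) and Igfbp2 -0.22 (-0.71 to 0.29).

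Called members were 2 of 4 in choroid plexus spots (5.96% of all genes), 1 of 8 in skin (5.17%), 1 of 3 in muscle (14.9%) and 2 of 10 in brain (11.4%). In brain spots Igfbp3 had 47 UMIs in the micropillar library and 14 in the flat library, a log2 ratio of 1.15 (0.33 to 2.00), and Igfbp6 had 74 (micropillar) and 87 (flat) UMIs, which gives a log2 ratio of -0.72 (-1.17 to -0.27). When every brain spot weighed the same, the Igfbp6 ratio was -0.45 and no longer called. Brain spots of the micropillar library carried fibroblast markers at 1249 CPM and epidermal markers at 816 CPM, against 251 CPM of fibroblast and 211 CPM of epidermal markers in those of the flat library, with all 7 and all 10 markers present in both. Their part in these ratios was not tested. In choroid plexus spots Igfbp7 had 37 UMIs in the micropillar library and 48 in the flat library, a log2 ratio of -0.94 (-1.60 to -0.29), and Igfbp5 had 6 (micropillar) and 14 (flat), with -1.78 (-3.43 to -0.32), and neither was called when the marker Clic6 was left out in choosing the spots (-0.64 for Igfbp7 and -1.71 for Igfbp5). The Igfbp5 ratio was called under 7 of 11 alternatives. In skin spots Igfbp4 had 4 (micropillar) and 10 (flat) UMIs, which gives a log2 ratio of -1.80 (-3.76 to -0.06) that was not called when spots were thinned to 250 UMIs.

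Muscle spots also differed in make-up between the libraries. There Igfbp7 had 33 UMIs in the micropillar library and 39 in the flat library, or 1707 CPM (micropillar) and 673 CPM (flat), a log2 ratio of 1.34 (0.63 to 2.05) that was 0.63 and not called with TMM scaling, and 2.23 and not called in spots of at least 500 UMIs. Muscle markers in these spots stood at 40805 CPM in the micropillar library and 107644 CPM in the flat library, with all 11 markers present in both, and fibroblast markers, all 7 present in both, at 20376 CPM (micropillar) and 11109 CPM (flat). Their part in the ratio was not tested.

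**Figure D4:**
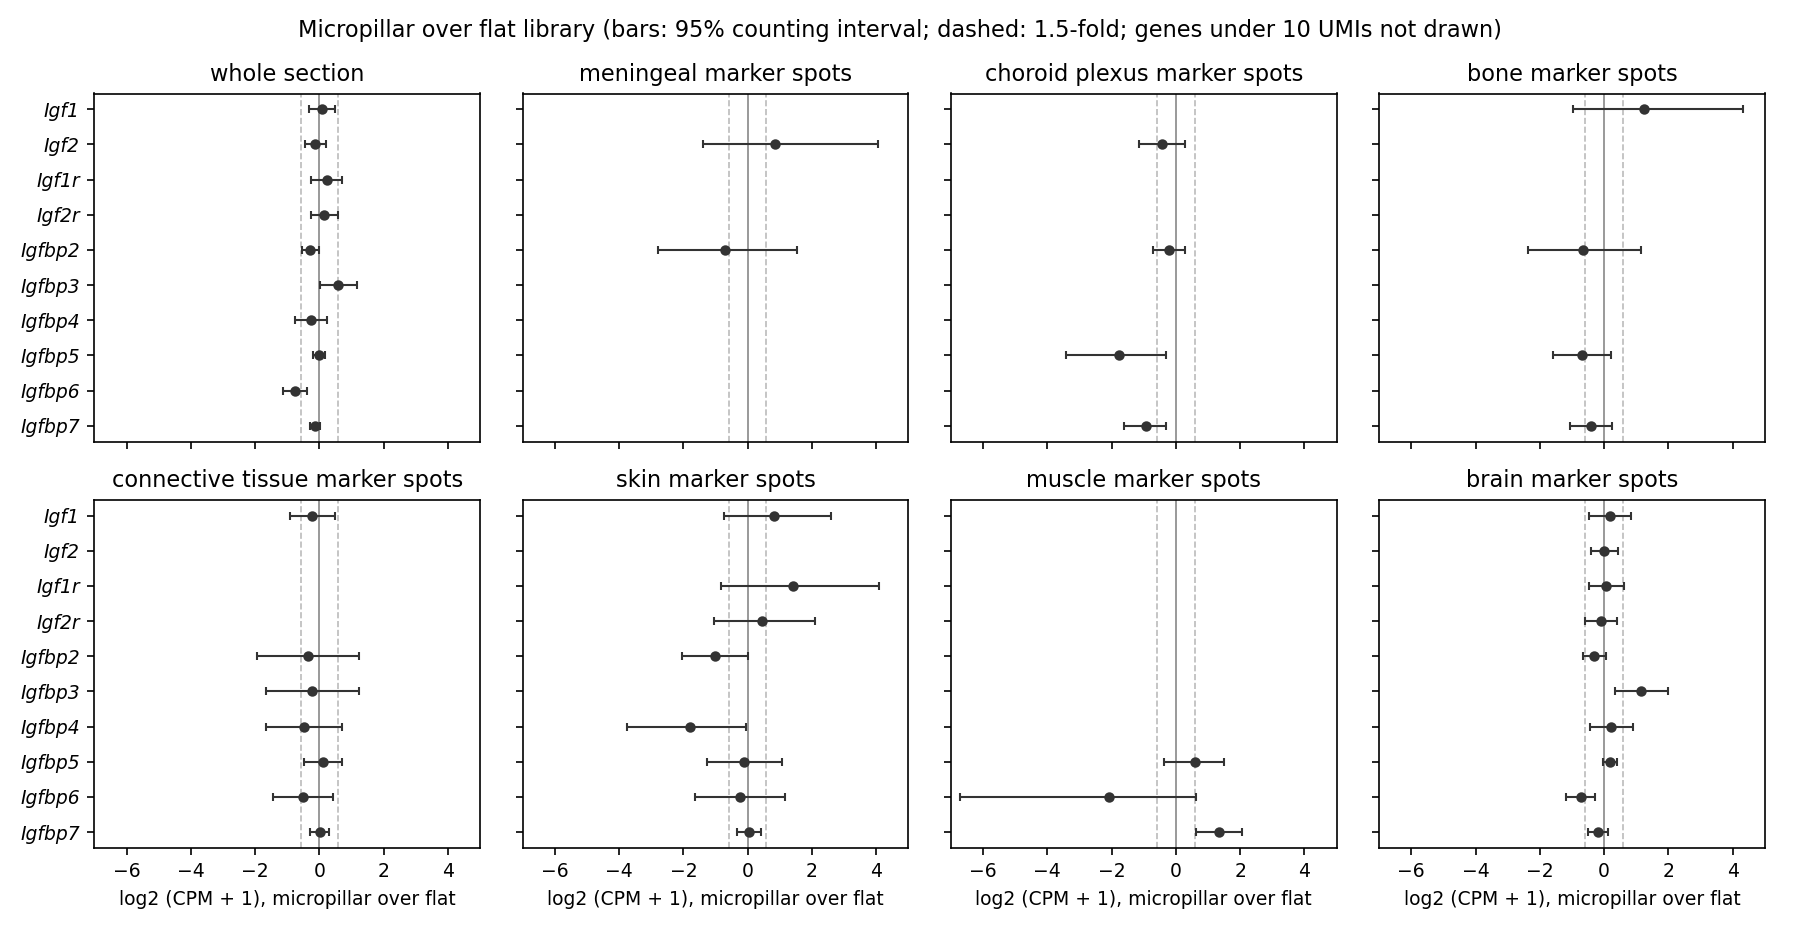
Log2 ratio of CPM plus 1, micropillar over flat library, for each IGF axis gene over the whole section and within each of 7 kinds of marker spots; bars are 95% counting intervals, dashed lines mark 1.5-fold, and genes with fewer than 10 UMIs in a kind are left out. Most intervals hold 0, Igfbp6 lies left of it in the section and in brain spots, and Igfbp7 lies left of it in choroid plexus spots and right of it in muscle spots.

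Other genes of the pathway were taken from lists of regulators and of the PI3K and AKT arm. Of 24 regulators matched by symbol 13 had at least 5 CPM in a library, with 6 higher and 7 lower in the micropillar library, of which 2 higher and 1 lower were past 1.5-fold. Of the PI3K and AKT arm 16 genes had that level, with 7 higher and 9 lower, again with 2 higher and 1 lower past 1.5-fold. The median log2 ratios of the lists were -0.08 and -0.10, beside the 0.06 of all genes. Past 1.5-fold with an interval that left out 0 were 3 genes, against 9.01% of all genes. Pik3ca, the catalytic subunit of PI3K, had 56 UMIs in the micropillar library and 16 in the flat library, a log2 ratio of 1.21 (0.46 to 1.99). Foxo1, a transcription factor that AKT holds out of the nucleus, had 101 (micropillar) and 110 (flat) UMIs, with -0.60 (-0.99 to -0.20), and Grb14, an adaptor that inhibits the insulin receptor, 76 (micropillar) and 91 (flat), with -0.72 (-1.17 to -0.28). The most abundant regulators were Htra1, Grb10 and Stat5b, with log2 ratios of -0.12, 0.20 and 0.29, and among the most abundant genes of the arm Gsk3b had -0.12 and Mtor -0.10.

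Htra1, a secreted protease that cuts IGF binding proteins, and its relative Htra3, named after its values were seen, were called higher than brain in connective tissue, skin and muscle spots of both libraries. Htra1 was 4.79-fold over brain in connective tissue spots of the micropillar library (3.43 to 6.58) and 4.14-fold in those of the flat library (2.75 to 6.07), on 47 (micropillar) and 32 (flat) UMIs. Htra3 had 17 UMIs there in the micropillar library, 18.5-fold over brain (9.23 to 36.5), and 18 in the flat library, 131-fold (38.3 to 696), against 3 UMIs in all brain spots of the flat library. Over the kinds, 5 of 13 regulators were called higher in connective tissue spots of the micropillar library and 3 of 11 in those of the flat library, where 14% (micropillar) and 15.3% (flat) of all genes were. Of 16 genes of the PI3K and AKT arm none was called higher, and 2 (micropillar) and 3 (flat) were called lower, where 12.9% (micropillar) and 14.8% (flat) of all genes were.

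Across the 7 kinds the members did not share 1 pattern. As a description over 12 points, the 6 kinds without connective tissue in both libraries, Igf2 and Igfbp2 had a Pearson correlation of log2(CPM + 1) of 0.44, Igf2 and Igfbp7 0.06 and Igf1 and Igf2 -0.45, and the points share libraries, depth and many zeros. The genes most like each member among 8077 with at least 20 CPM in a library were Lgals1, Timp3 and Nid2 for Igfbp7 (0.93, 0.90 and 0.86), Clmn, Fads1 and Slc7a11 for Igfbp2 (0.94, 0.89 and 0.89) and Fn3k, Qk and Ctbp2 for Igf2 (0.89, 0.86 and 0.85). Igfbp5 was most like Grb14, Fth1 and Aif1 (0.86, 0.86 and 0.84). The other 5 members placed gave correlations from 0.95 to 0.99. The genes were Lamc1, Prrc1 and Trp53 for Igf1, Nagpa, Atxn1l and Paxx for Igf1r, E4f1, Cand1 and Kantr for Igf2r, Map3k2, Cdk2ap2 and Tbc1d22a for Igfbp4, and Immt, Rdh14 and Ube3b for Igfbp6. Each of these 5 members had at most 13 UMIs at any of the points outside brain spots and 0 UMIs at some of them. Igf1, Igfbp4 and Igfbp6 stood highest in connective tissue spots, which the points leave out. These high correlations therefore do not show a shared tissue pattern. Igfbp3 had under 50 UMIs in the flat library and was not placed.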

How the data were processed

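The authors deposited UMI counts without normalisation, as 1 matrix of genes by spots for each library. The matrices came from spaceranger 2.0.1, per the file headers. Cell Ranger 7.2.0 and build mm10 stand in the submitters' processing notes, and a directional mRNA kit in the labels' protocol. Which of these made the counts, and any probe set, is not stated there. No positions or images of spots entered. The libraries share 2135 spot barcodes, which are grid positions of a common list.

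Spots with at least 100 UMIs were kept and counts were summed over spots as CPM (per 1000000 UMIs of those spots). Ratios between libraries carry a pseudocount of 1 CPM, which understates changes of low genes, and folds over brain carry none. Intervals are 95%, exact Poisson for a level and exact Clopper-Pearson for the split of UMIs in a ratio. Genes with at least 5 CPM on 1 side were tested, and within kinds those with at least 10 UMIs, a minimum added once the depth was seen. The genes, lists, kinds and thresholds were chosen with earlier results of these data known. All 10 genes, the 3 most abundant genes of each pathway list and those past 1.5-fold with an interval that leaves out 1 were named, with the 3 most alike genes for each member with at least 50 UMIs in each library. Of 131 marker genes 128 were in the files, and where 2 rows shared a symbol (11 symbols) the fuller one was taken. Doublets were not called, spots being no single cells. Promoter windows matched all 10 members. Ratios and intervals were tried on simulated Poisson counts, which hold no variation between spots, sections or animals. That run checks the calculation under counting error only and says nothing about differences between animals. Alternatives covered scaling (edgeR TMM, DESeq2 size factors), pseudocount, spot weight, UMI and marker minimums, thinning to 250 UMIs and the marker lists. Python 3.11.15 with numpy 2.4.6, scipy 1.17.1 and pandas 2.3.3 and R 4.3.3 with edgeR 4.0.16 and DESeq2 1.42.0 were used.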

Additional observations from a re-analysis of the deposited data

Results flagged for a closer look

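Igfbp7 went opposite ways in a pair of kinds, with a log2 ratio of micropillar over flat of 1.34 in muscle marker spots and of -0.94 in choroid plexus marker spots. The difference between these ratios was not tested, and each rests on 1 library per group.

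Spots with under 100 UMIs, left out of every comparison, still held UMIs of some members above the 3 counts that a count of 0 allows, and there were no control samples to set them against. In the 239 such spots of the micropillar library, with 15345 UMIs, there were 10 of Igfbp7, 6 of Igf2 and 5 of Igfbp5. In the 480 such spots of the flat library, with 22950 UMIs, there were 21 of Igfbp5, 21 of Igfbp7, 7 of Igfbp6, 4 of Igf1 and 4 of Igfbp4. Igfbp5 and Igfbp7 in these flat spots stood at 915 CPM each (566 to 1399), against 183 and 266 CPM in the kept spots of the flat library.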

How the results depend on the processing

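No paired analysis was possible because each group has 1 library. The share of all genes past 1.5-fold between libraries was 7.41% with a pseudocount of 5 CPM and 23.6% when every spot weighed the same, beside 13.6%. Members past 1.5-fold were 2 with a pseudocount of 0.1 CPM, with spots of at least 500 UMIs and with no minimum of UMIs, since Igfbp3 then joined Igfbp6. Igfbp6 was called under all 7 alternatives (-0.98 to -0.65). Between libraries within a kind, Igfbp3 in brain spots was called under all 10 alternatives, Igfbp6 in brain and Igfbp4 in skin spots under 9 of 10, Igfbp7 under 10 of 11 in choroid plexus and 8 of 10 in muscle spots, and Igfbp5 in choroid plexus spots under 7 of 11. Pairs of gene and kind called above brain numbered 13 in the micropillar library when spots were thinned to 250 UMIs, beside 21, and 14 in the flat library with spots of at least 500 UMIs, which left 19 connective tissue and 14 muscle spots there, beside 23. Of 47 called folds over brain, 256 of 299 values under the alternatives were still called. Values with 0 UMIs of the gene, or with no spots left in the kind, are not among the 299. Lost calls are missing from that count for this reason. Examples are Igfbp2 and Igfbp7 in meningeal spots of the micropillar library, at 0 UMIs with a marker minimum of 3 UMIs. Among the values counted, only Igfbp7 in muscle spots of the flat library changed sign. Its log2 fold was -0.026 with spots of at least 500 UMIs, and the cause was not tested. Choroid plexus Igf2 and Igfbp2 were called under all 7 alternatives in both libraries, with Igf2 at 11.6-fold to 23.5-fold in the micropillar library and 10.2-fold to 44.8-fold in the flat library, and Igfbp2 at 15.5-fold to 50.3-fold in the micropillar library and 15.5-fold to 43.4-fold in the flat library. Connective tissue Igfbp7 was called under all 7 in both, and Igf1 under 7 in the micropillar library and 6 in the flat library, with 5.27-fold in spots of at least 500 UMIs not called. The marker genes Bglap, Clic6 and Col1a2 with Col3a1 were left out in turn as alternatives chosen after seeing the data. Depth limits the meningeal spots most, where no member but Igf2 and Igfbp2 reached 10 UMIs over both libraries.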
